A study of Mus musculus with 6 samples.

Results

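The colony-stimulating factors and their receptors were examined in infarct macrophages with and without the α5 integrin chain. The 8 genes were taken by symbol from the deposited count table of 54532 genes. They are the ligand genes Csf1, Csf2 and Csf3 and the receptor genes Csf1r, Csf2ra, Csf2rb, Csf2rb2 and Csf3r, and all 8 had a count in at least 1 library. The 6 RNA-seq libraries came from infarcted hearts of 12-week-old C57BL/6 mice, 7 days after the left anterior descending artery had been tied off for good. The 3 control libraries came from ITGA5 fl/fl mice, whose α5 integrin gene carries recombination sites and is intact in the absence of Cre. The other 3 came from Myα5KO mice, ITGA5 fl/fl animals that also carried LyzM-Cre, in which Cre is driven by the lysozyme M gene (Lyz2) and acts in all cells that have expressed it. Both genotypes therefore carried the floxed allele, while Cre and the altered Lyz2 locus were present only in Myα5KO mice. Infarct macrophages were the Ly6G- CD11b+ cells that remained on magnetic columns, prepared from the digested hearts of individual mice.

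Colony-stimulating factors are secreted proteins that keep myeloid cells alive, let them divide and steer what they become. CSF-1, also called M-CSF, acts through the receptor tyrosine kinase CSF1R, on which macrophages depend for survival. GM-CSF, encoded by Csf2, binds a specific α chain (CSF2RA) that signals together with the β common chain (CSF2RB). The mouse has a second β chain gene, Csf2rb2, whose product serves interleukin-3. G-CSF, encoded by Csf3, acts through CSF3R and drives the production and release of neutrophils from the bone marrow.

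Total counts lay between 15424451 and 18419287 per library. Itga5 fell from 607 ± 43.2 CPM in ITGA5 fl/fl to 48.7 ± 1.48 CPM in Myα5KO macrophages (n = 3 each, mean ± SD), so that 8.02% of the level was left (log2 fold change -3.64, edgeR adjusted p = 4.42e-12), as the labels state. Lyz2, which hosts the Cre, fell from 7315 ± 286 to 3874 ± 254 CPM (log2 fold change -0.92, edgeR adjusted p = 4.27e-05). CPM, counts relative to the TMM-scaled total of a library, adjust for depth but not for gene length, and adjusted p-values come from edgeR over all 14522 genes that passed its filter on low counts. These p-values set the difference between genotypes against the spread between libraries of the same genotype. The spread is estimated with help from the other genes.

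In Myα5KO infarct macrophages the G-CSF gene Csf3 and both β chain genes, Csf2rb and Csf2rb2, were lower than in ITGA5 fl/fl cells, Csf3 to less than 50% of the control level and the β chains to about 74% of it. The α chain gene Csf2ra and the receptor genes Csf1r and Csf3r did not pass the test, and neither did Csf1. Of the 8 genes, 7 passed the count filter and Csf2 did not. Of these 7, 3 were called changed at an adjusted p of 0.05 or less and all 3 were lower, against 8.75% of all tested genes called in either direction and 5.19% called lower. Csf2rb and Csf2rb2 are near-identical neighbours, and with their counts summed to a single row 2 rows were called lower. The 8 genes were chosen with earlier results of these data known. None of the 7 was called higher, against 3.56% of all tested genes. All 3 Myα5KO libraries lay on one side of all 3 controls for 4 of the 7 genes (Csf1, Csf3, Csf2rb and Csf2rb2), and the same was true of 28.6% of all tested genes. In bulk RNA, fewer cells of an expressing type and less RNA per cell cannot be told apart, which holds for every difference given here.

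**Figure D1:**
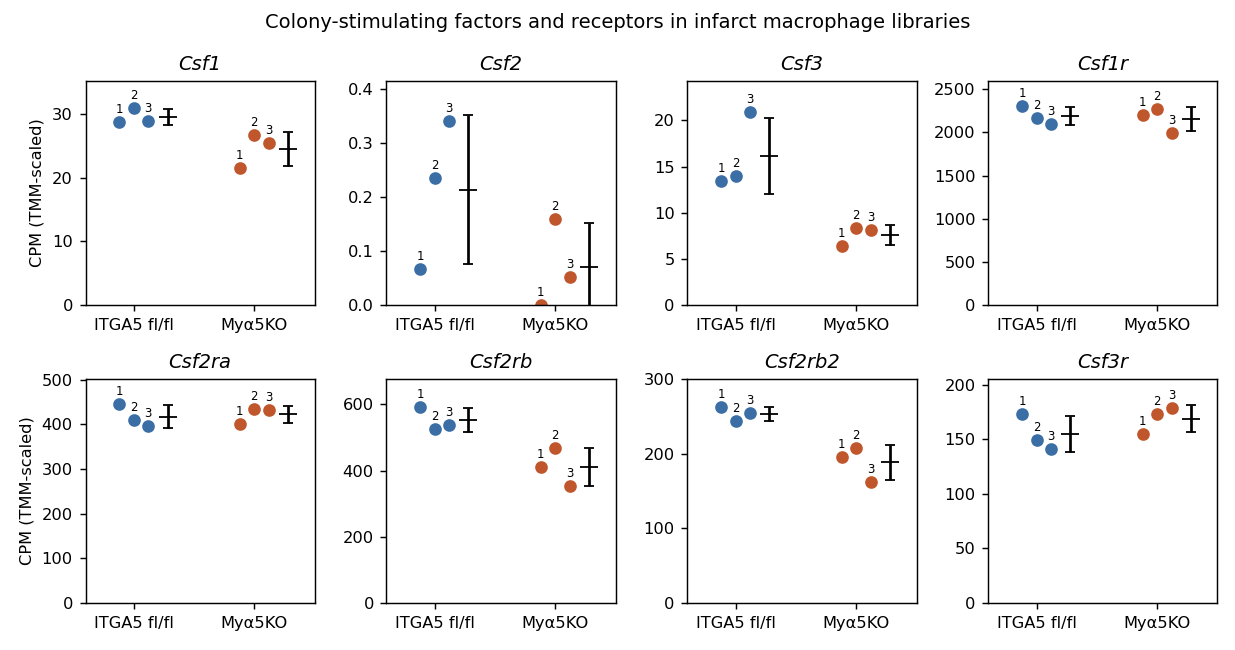
TMM-scaled CPM (vertical axis, from 0) of the 8 genes in each library, with blue points for ITGA5 fl/fl, orange points for Myα5KO, the replicate number above each point and the mean ± SD (n = 3) beside the points. The genotypes do not overlap for Csf1, Csf3, Csf2rb and Csf2rb2, and the lower end of the Myα5KO error bar of Csf2 is drawn only down to 0.

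Csf3 (ENSMUSG00000038067, GRCm38 chromosome 11, 98701263 to 98703629, plus strand, protein coding) encodes G-CSF, and had 201, 239 and 368 counts in the control libraries and 120, 156 and 154 in the Myα5KO libraries. These were 13.5, 14.0 and 20.9 CPM in ITGA5 fl/fl macrophages and 6.39, 8.35 and 8.10 CPM in Myα5KO macrophages. The genotypes did not overlap, and control replicate 3 stood above the other controls, which were close to each other. The mean fell from 16.2 ± 4.16 to 7.61 ± 1.07 CPM (n = 3 each, SD), or to 47.1% of the controls. The log2 fold change was -1.09 (SE 0.17, interval -1.45 to -0.72, edgeR adjusted p = 0.00188). Leaving out control replicate 3, the highest library, gave -0.85, and Csf3 was still called.

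Csf1 (ENSMUSG00000014599, chromosome 3, 107741048 to 107760469, minus strand, protein coding), the main ligand of CSF1R, was measured at 28.8, 30.9 and 28.9 CPM in ITGA5 fl/fl macrophages and at 21.6, 26.6 and 25.4 CPM in Myα5KO macrophages. Every Myα5KO library was below every control library, but the gap between the nearest libraries was small. The log2 fold change of -0.27 (SE 0.09, interval -0.47 to -0.07) did not pass the test (edgeR adjusted p = 0.0977). Il34 encodes interleukin-34, the other ligand of CSF1R. It was near the detection limit, with 8 to 16 counts in the control and 11 to 20 in the Myα5KO libraries, and did not pass the test (0.728 ± 0.23 and 0.885 ± 0.262 CPM, log2 fold change 0.28, edgeR adjusted p = 0.719).

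Csf2 (ENSMUSG00000018916, chromosome 11, 54247271 to 54249667, minus strand, protein coding), the GM-CSF gene, was at the edge of detection. Its counts were 1, 4 and 6 in the control libraries and 0, 3 and 1 in the Myα5KO libraries, 11 against 4 reads in all. The genotypes overlapped, and at this depth a difference was not detectable (exact two-sided permutation test of CPM, p = 0.2, where 0.1 is the smallest p that 3 against 3 libraries allow). The other ligands that use a β chain were as scarce, with no count of Il3 in any library and no more than 0.107 CPM of Il5.

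Csf2rb (ENSMUSG00000071713, chromosome 15, 78325752 to 78353847, plus strand, protein coding) and Csf2rb2 (ENSMUSG00000071714, chromosome 15, 78282507 to 78305721, minus strand, protein coding) lie next to each other, 20031 bases apart, and read in opposite directions. Their coding sequences, 2688 and 2634 bases in the GENCODE M21 transcripts ENSMUST00000096355.3 and ENSMUST00000096356.4, were identical at 95.2% of 2628 aligned positions without a gap. Reads of one can therefore be counted for the other, depending on where they fall. The windows below, in exon 4 of each gene, are the 120 coding bases in which the pair differed most, with the 16 differing bases in capitals. They are shown because reads over such bases tell the genes apart. The first is chr15:78338867-78338986 on the plus strand and the second chr15:78294345-78294464 on the minus strand (GRCm38).
Csf2rb: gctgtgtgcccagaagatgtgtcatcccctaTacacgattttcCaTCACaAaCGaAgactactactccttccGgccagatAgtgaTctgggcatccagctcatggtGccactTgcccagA
Csf2rb2: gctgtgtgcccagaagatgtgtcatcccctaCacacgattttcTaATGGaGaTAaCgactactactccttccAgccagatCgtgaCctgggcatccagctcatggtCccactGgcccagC

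The longest run that both transcripts shared exactly was 242 bases, in exon 14 of both genes, at chr15:78348577-78348818 on the plus strand in Csf2rb and at chr15:78284630-78284871 on the minus strand in Csf2rb2. It is shown because a read that falls wholly inside it cannot be assigned to either gene from its letters.
Csf2rb and Csf2rb2: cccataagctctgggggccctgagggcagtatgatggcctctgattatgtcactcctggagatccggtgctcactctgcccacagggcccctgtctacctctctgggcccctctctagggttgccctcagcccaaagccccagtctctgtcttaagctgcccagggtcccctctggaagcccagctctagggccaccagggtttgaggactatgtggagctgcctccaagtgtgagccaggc
Of all 150-base words of the transcripts, 3.58% of Csf2rb and 3.59% of Csf2rb2 were found unchanged in the other gene. For 50-base words the shares were 18.9% and 19.0%.

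Csf2rb was measured at 593, 527 and 536 CPM in ITGA5 fl/fl macrophages and at 410, 467 and 353 CPM in Myα5KO macrophages. Csf2rb2 was measured at 262, 243 and 254 CPM in the controls and at 195, 207 and 162 CPM in Myα5KO macrophages. For both genes all 3 Myα5KO libraries were below all 3 control libraries, and Myα5KO replicate 3 was the lowest of all. Csf2rb fell from 552 ± 35.6 to 410 ± 56.9 CPM (log2 fold change -0.43, SE 0.09, interval -0.63 to -0.23, edgeR adjusted p = 0.0123). Csf2rb2 fell from 253 ± 9.83 to 188 ± 23.6 CPM (log2 fold change -0.43, SE 0.09, interval -0.61 to -0.24, edgeR adjusted p = 0.00792). Without Myα5KO replicate 3 the log2 fold changes were -0.33 for both genes, and both were still called. On the deposited FPKM values, where limma replaced the count test, the size of the change was the same but neither gene passed, with limma adjusted p of 0.0732 for Csf2rb and 0.0619 for Csf2rb2 at a pseudocount of 1.

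The split of reads between the paralogs was steady. Csf2rb2 took 30.7, 31.6 and 32.1% of the summed β chain counts in ITGA5 fl/fl macrophages and 32.2, 30.8 and 31.4% in Myα5KO macrophages. The means, 31.5 ± 0.721% and 31.5 ± 0.735%, differed by 0.0205 percentage points (exact two-sided permutation test, p = 1). When the counts of both genes were summed to a single row before the test, the β chains together changed by -0.43 on the log2 scale (edgeR adjusted p = 0.0113), a value that does not depend on how reads were divided between the genes. Genes on either side of the pair did not pass the test. Ncf4, which encodes a phagocyte oxidase subunit, was at 167 and 148 CPM (log2 fold change -0.17, edgeR adjusted p = 0.12), and Il2rb, the β chain of the interleukin-2 receptor, was at 20.9 and 19.4 CPM (log2 fold change -0.11, edgeR adjusted p = 0.521). Tst, Mpst and Kctd17, which lie between Csf2rb and Il2rb, had log2 fold changes of 0.24, -0.26 and -0.10 (edgeR adjusted p = 0.743, 0.147 and 0.644). Itga5 itself lies on the same chromosome, 25 megabases away.

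**Figure D2:**
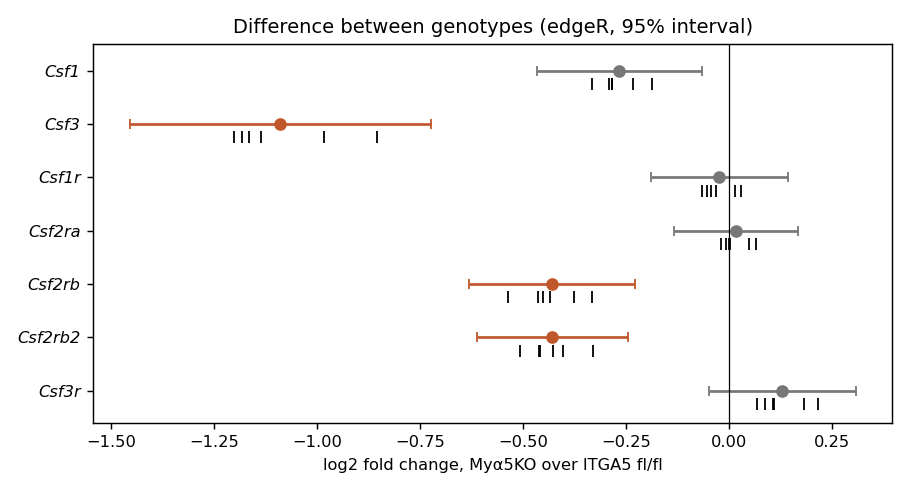
Log2 fold changes (horizontal axis, Myα5KO over ITGA5 fl/fl) of the 7 tested genes from edgeR, with bars for the 95% interval, orange where the adjusted p was 0.05 or less and grey otherwise. The short ticks under each point are the values with each of the 6 libraries left out in turn, which lie between -1.20 and -0.85 for Csf3 and on both sides of 0 for Csf1r and Csf2ra.

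Csf2ra (ENSMUSG00000059326, chromosome 19, 61224402 to 61228418, minus strand, protein coding), the chain that gives the receptor its specificity for GM-CSF, was measured at 445, 409 and 396 CPM in ITGA5 fl/fl macrophages and at 401, 434 and 432 CPM in Myα5KO macrophages. The genotypes overlapped. The log2 fold change was 0.02 (interval -0.13 to 0.17, edgeR adjusted p = 0.914), an interval that does not reach the change of the β chains. The α chains of the other β chain receptors did not pass the test either. Il3ra, the interleukin-3 receptor α chain, was at 52.2 ± 4.97 and 50.8 ± 6.57 CPM (log2 fold change -0.04, edgeR adjusted p = 0.85). Il5ra, the interleukin-5 receptor α chain, was at 1.90 and 1.89 CPM (log2 fold change -0.01, edgeR adjusted p = 0.988).

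A ratio of β to α chains was formed after these values had been seen. It was taken in FPKM, a scale per kilobase of gene, with a deposited gene length of 7277 bases for Csf2rb and 4740 for Csf2rb2. The Csf2rb transcript named above has 4764 bases, and at that length its FPKM and the ratio would be higher. Csf2rb and Csf2rb2 together amounted to 56.8, 55.8 and 59.4% of Csf2ra in ITGA5 fl/fl macrophages and to 45.0, 46.0 and 35.4% in Myα5KO macrophages. The ranges did not overlap, and the means were 57.3 ± 1.83% and 42.1 ± 5.85%. The exact two-sided permutation p was 0.1, the smallest this design allows, and 0.267 after Benjamini-Hochberg adjustment over the 4 ratios computed. The Csf1 to Csf1r ratio in FPKM, a ratio of ligand to receptor message, was 1.16, 1.32 and 1.27% in the controls and 0.907, 1.09 and 1.18% in Myα5KO macrophages. Those ranges overlapped, since Myα5KO replicate 3 was above control replicate 1 (means 1.25 ± 0.0843% and 1.06 ± 0.138%, exact two-sided permutation p = 0.2, adjusted 0.267).

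**Figure D3:**
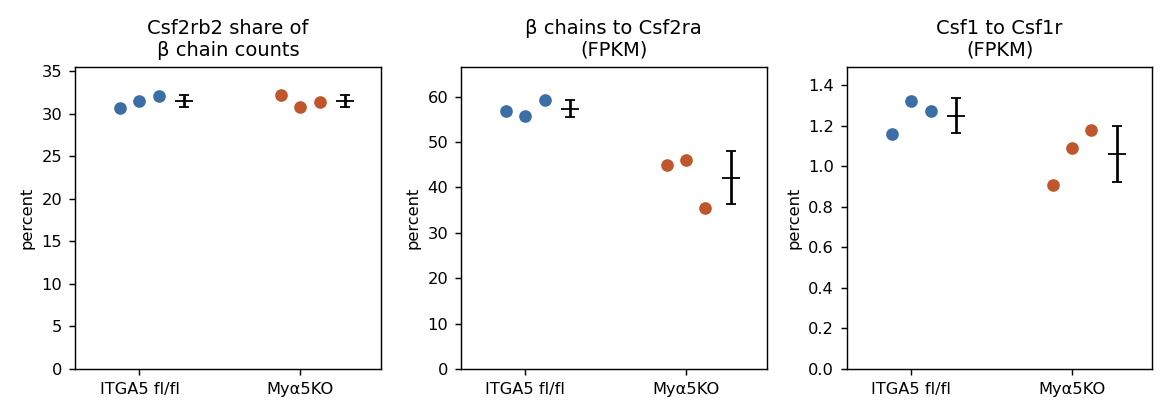
Library ratios in percent (vertical axes, from 0) for each library, with blue points for ITGA5 fl/fl, orange points for Myα5KO and the mean ± SD (n = 3) beside them. The share of Csf2rb2 among β chain counts stays between 30.7 and 32.2% in all libraries, the β chains relative to Csf2ra do not overlap between genotypes, and Csf1 relative to Csf1r does.

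The start regions of the 2 receptor genes Csf2rb2, which was lower, and Csf2ra, which was not called, are shown as an example of what lies before a changed and an uncalled subunit of related receptors. They are RefSeq promoters of build GRCm38.p6, from 250 bases before to 50 after the start, at chr15:78305672-78305971 on the minus strand and chr19:61228369-61228668 on the minus strand. Such windows were at hand for 5 of the 8 genes (Csf1, Csf2, Csf2ra, Csf2rb2 and Csf3r). Capitals mark matches to GAGGAA, the core bound by PU.1, and TTGNNNAA, the type bound by C/EBP factors. Matches on both strands were counted and were allowed to overlap.
Csf2rb2: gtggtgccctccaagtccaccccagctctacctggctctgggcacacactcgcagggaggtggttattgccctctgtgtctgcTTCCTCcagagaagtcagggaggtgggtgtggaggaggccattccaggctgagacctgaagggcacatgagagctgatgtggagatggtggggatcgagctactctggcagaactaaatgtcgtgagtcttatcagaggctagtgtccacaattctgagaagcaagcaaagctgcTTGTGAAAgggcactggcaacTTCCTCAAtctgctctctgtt
Csf2ra: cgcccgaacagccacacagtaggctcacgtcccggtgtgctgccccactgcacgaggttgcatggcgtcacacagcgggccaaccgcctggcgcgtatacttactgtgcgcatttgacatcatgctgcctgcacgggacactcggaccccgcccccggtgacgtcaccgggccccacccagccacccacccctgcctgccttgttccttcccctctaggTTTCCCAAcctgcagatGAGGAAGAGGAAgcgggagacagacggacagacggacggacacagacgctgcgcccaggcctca
Csf2rb2 held GAGGAA at -167 and 30 and TTGNNNAA at 9 and 30, counted from the start. Csf2ra held GAGGAA at -14 and -8 and TTGNNNAA at -31. GAGGAA was found in 28.3% and TTGNNNAA in 36.7% of all 32851 promoters of this length, so a match in either window is common. Neither window held TATAAA, the TATA box, or TGACTCA, the site of AP-1, which occurred in 13.6 and 5.20% of all promoters.

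Csf1r was the most abundant of the 8 genes and did not differ beyond the spread of the libraries. It was measured at 2301, 2166 and 2098 CPM in ITGA5 fl/fl macrophages and at 2200, 2265 and 1995 CPM in Myα5KO macrophages, with overlapping ranges. The log2 fold change was -0.02 (interval -0.19 to 0.14, edgeR adjusted p = 0.894), and its sign depended on which library was left out and on the scaling. The gene (ENSMUSG00000024621, plus strand, protein coding) shares 873 exon bases with Hmgxb3 on the opposite strand, which had 3180 counts over all libraries against 34331 or more for Csf1r in each library.

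Csf3r (ENSMUSG00000028859, chromosome 4, 126024550 to 126044440, plus strand, protein coding), the G-CSF receptor, which neutrophils and monocytes carry, was measured at 173, 150 and 141 CPM in ITGA5 fl/fl macrophages and at 155, 173 and 179 CPM in Myα5KO macrophages. The ranges overlapped and the log2 fold change of 0.13 (interval -0.05 to 0.31) did not pass the test (edgeR adjusted p = 0.378). Several neutrophil transcripts moved with genotype beside it. Of 12 neutrophil markers other than Csf3r, 10 were tested and 7 were called higher, against 3.56% of all tested genes. The granule genes Elane and Mpo were among the 7. Mmp8, Mmp9 and Retnlg were not called, and Retnlg had a negative log2 fold change (-0.65, edgeR adjusted p = 0.311). The 12 markers summed to 84.2 to 123 CPM in the controls and 180 to 278 CPM in Myα5KO libraries. Mmp9 alone was 42.3 to 61.3 CPM in the controls and 45.4 to 91.4 CPM in Myα5KO libraries. The defining markers Ly6g, at 0.107 CPM or less, and Cxcr2, between 0.368 and 0.469 CPM, were near 0 in every library. Their part in the value of Csf3r was not tested.

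**Figure D4:**
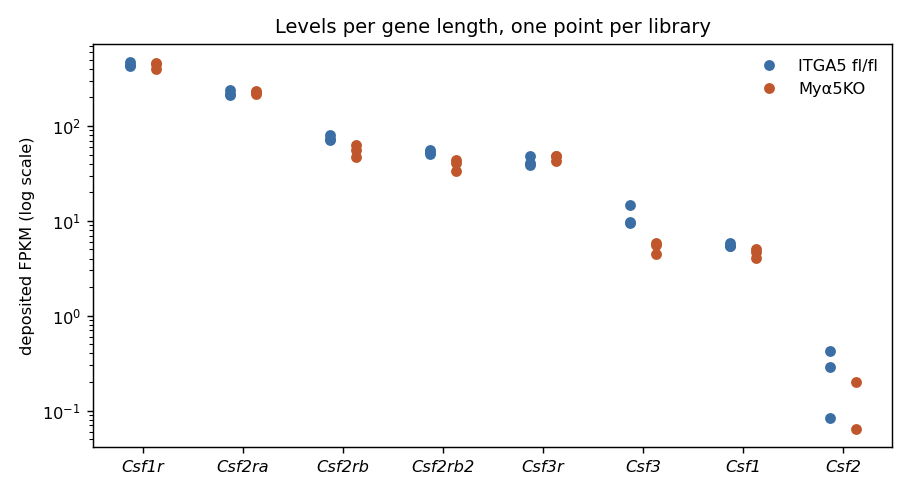
Deposited FPKM (vertical axis, log scale) of the 8 genes in each library, ordered by their mean over all 6 libraries, with blue points for ITGA5 fl/fl and orange points for Myα5KO. Csf1r is the highest at 401 to 470 FPKM and Csf2 the lowest, and Myα5KO replicate 1, which is 0 for Csf2, cannot be drawn on this scale.

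Per length, the receptors were far more abundant than their ligands. Csf1r led with a mean of 442 FPKM over the 6 libraries (401 to 470), followed by Csf2ra at 225 FPKM (214 to 240), and neither range overlapped with the next. Csf2rb (65.7 FPKM, 47.6 to 81.3), Csf2rb2 (46.3 FPKM, 33.5 to 55.3) and Csf3r (44.6 FPKM, 39.0 to 48.7) followed. The level of Csf2rb rests on the deposited gene length of 7277 bases, longer than its transcript of 4764 bases. Csf2rb was above Csf2rb2 in 6 of 6 libraries although their ranges overlapped, while Csf2rb2 was above Csf3r in 3 of 6, so that the order of the latter pair was not resolved. Csf3 (8.36 FPKM, 4.51 to 14.8) was above Csf1 (5.08 FPKM, 4.07 to 5.80) in 6 of 6 libraries, again with overlapping ranges. Csf2 came last at 0.178 FPKM, from 0 to 0.426.

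For each changed gene, the genes with the closest pattern over the 6 libraries were sought. Closeness was the root mean square difference of log2 CPM, relative to the control mean. The search covered 9547 tested genes with a mean of 5 CPM or more. Genes with predicted, RIKEN or clone symbols were left out of it. Closest to Csf3 were Il10 (0.112 log2 units), Acod1 (0.195), Cxcl1 (0.213), Mir155hg (0.225) and Jdp2 (0.226). They encode interleukin-10, the enzyme that makes itaconate, a chemokine for neutrophils, the host transcript of microRNA-155 and a partner of AP-1 proteins. Closest to Csf2rb were Pxk (0.0298), Ppp1r13l (0.0322), Gna13 (0.0323), Slc2a1 (0.0348) and its paralog Csf2rb2 (0.0398). Closest to Csf2rb2 were N4bp1 (0.0235), Slc2a1 (0.0253), Pxk (0.0270), Por (0.0324) and Metap1 (0.0329), with Csf2rb in place 9. Gna13 encodes a G protein α subunit, Slc2a1 the glucose transporter GLUT1 and Por the cytochrome P450 reductase.

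Around the receptors, 99 genes in 7 lists were followed, of which 97 were tested. Of these 12 were higher and 17 lower in Myα5KO macrophages, 29.9% in all. Over all tested genes 8.75% were called, 3.56% higher and 5.19% lower, and the counts of each list below stand against these shares. Lists with a called gene had 21.4 to 40% of their tested genes called. The lists were chosen with earlier results of these data known, so their shares are not an independent comparison with all tested genes. The median log2 fold change of the 97 genes was -0.03, against 0.01 over all tested genes. Scaled to library size alone, 25 were higher and 10 lower, and without ITGA5 fl/fl replicate 3, 5 were higher and 9 lower. The list of other ligands and receptor subunits (Il34, Il3, Il5, Il3ra and Il5ra) had 3 tested genes and none was called.

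Among 23 proximal signal transducers, the kinases and adaptors that the receptors use, 3 were higher and 5 lower (median log2 fold change -0.03). Jak2, the kinase that β chain receptors carry, fell from 243 to 156 CPM (log2 fold change -0.64, edgeR adjusted p = 0.00104). Jak1, a kinase of the same family, was at 332 and 310 CPM (edgeR adjusted p = 0.438). Stat3, a transcription factor that these kinases switch on, fell from 494 to 409 CPM (log2 fold change -0.27, edgeR adjusted p = 0.028). Stat5a and Stat5b, the main STAT factors of GM-CSF signaling, did not pass the test, with log2 fold changes of -0.19 and 0.09. The tyrosine kinases Src and Syk fell by 0.55 and 0.44 on the log2 scale (edgeR adjusted p = 0.00181 and 0.0029), and Pik3cd, a catalytic subunit of PI-3 kinase in leukocytes, rose by 0.38 (edgeR adjusted p = 0.00305).

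Of 14 genes of negative feedback, 2 were higher and 1 lower (median log2 fold change -0.12). Ptpn6, which encodes the phosphatase SHP-1, rose from 177 ± 11.2 to 256 ± 5.30 CPM (log2 fold change 0.53, edgeR adjusted p = 0.00043). The adaptor gene Dok3 rose by 0.33 and Spred2, an inhibitor of the Ras pathway, fell by 0.52 on the log2 scale (edgeR adjusted p = 0.0158 and 0.0189). Cish and Socs3, which cytokine receptors switch on to restrain themselves, were at 42.7 and 34.4 CPM and at 867 and 746 CPM, and their edgeR adjusted p-values of 0.07 and 0.076 missed the threshold. Dok1 missed it in the other direction, at 32.6 and 40.2 CPM (log2 fold change 0.30, edgeR adjusted p = 0.0543).

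Of 18 genes in the list of GM-CSF response, 1 was higher and 5 lower (median log2 fold change -0.07). Bhlhe40, a transcription factor induced by GM-CSF, fell from 460 ± 9.95 to 342 ± 10.3 CPM (log2 fold change -0.43, edgeR adjusted p = 0.00143). The survival genes Bcl2l1, Bcl2a1a, Bcl2a1b and Bcl2a1d fell by 0.30, 0.44, 0.34 and 0.28 on the log2 scale, and the last 3 are near-identical copies whose reads may have been exchanged. Cd209a, a lectin of monocyte-derived dendritic cells, rose from 10.8 to 15.9 CPM (log2 fold change 0.57, edgeR adjusted p = 0.0259). Pparg and Ccl17, known targets of GM-CSF, did not pass the test (log2 fold changes 0.25 and 0.04), and Ccl17 had only 13 to 26 counts per library. Among other uncalled genes of the list, Ccl22, Irf4 and Itgax had log2 fold changes of 0.53, 0.29 and 0.25. Cish and Pim1, also uncalled, went the other way (-0.31 and -0.23).

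Of 15 genes in the list of CSF1 response, 4 were higher and 2 lower (median log2 fold change 0.23). Fos rose from 1039 ± 71.7 to 1518 ± 292 CPM (log2 fold change 0.55, edgeR adjusted p = 0.00987) and the cyclin genes Ccnd1 and Ccnd2, which drive entry into the cell cycle, rose by 0.46 and 0.33. The phosphatase gene Dusp1 rose by 0.27, while Ier3 fell from 659 to 495 CPM (log2 fold change -0.41, edgeR adjusted p = 0.00584) and Ets2 fell by 0.24. Of 12 regulators of Csf1r and myeloid lineage transcription, 2 were higher and 1 lower (median log2 fold change -0.02). Maf rose from 166 ± 6.63 to 218 ± 8.93 CPM (log2 fold change 0.39, edgeR adjusted p = 0.00296) and Klf4 by 0.39 (edgeR adjusted p = 0.0333), and Ets2 was the lower one. Spi1, which encodes PU.1 and is required for Csf1r expression, was at 448 and 422 CPM and did not pass the test (edgeR adjusted p = 0.453).

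Among 15 genes that control transcription of the ligands or decay of their mRNA, none was higher and 4 were lower (median log2 fold change -0.10). Nfkb1, the gene of the NF-κB subunit p50, fell from 687 ± 26.5 to 427 ± 49.4 CPM (log2 fold change -0.69, edgeR adjusted p = 0.000359). Il17ra, a receptor chain for interleukin-17, which induces Csf3 in many cells, fell from 250 ± 26.5 to 181 ± 14.3 CPM (log2 fold change -0.47, edgeR adjusted p = 0.00495). Nfkbia and Zc3h12a fell by 0.32 each (edgeR adjusted p = 0.0359 and 0.0117). Nfkbia encodes IκBα, which holds NF-κB in the cytoplasm, and Zc3h12a an RNase that degrades cytokine mRNAs. Zfp36, whose product promotes the decay of cytokine mRNAs, was at 1756 and 2035 CPM (edgeR adjusted p = 0.239).

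**Figure D5:**
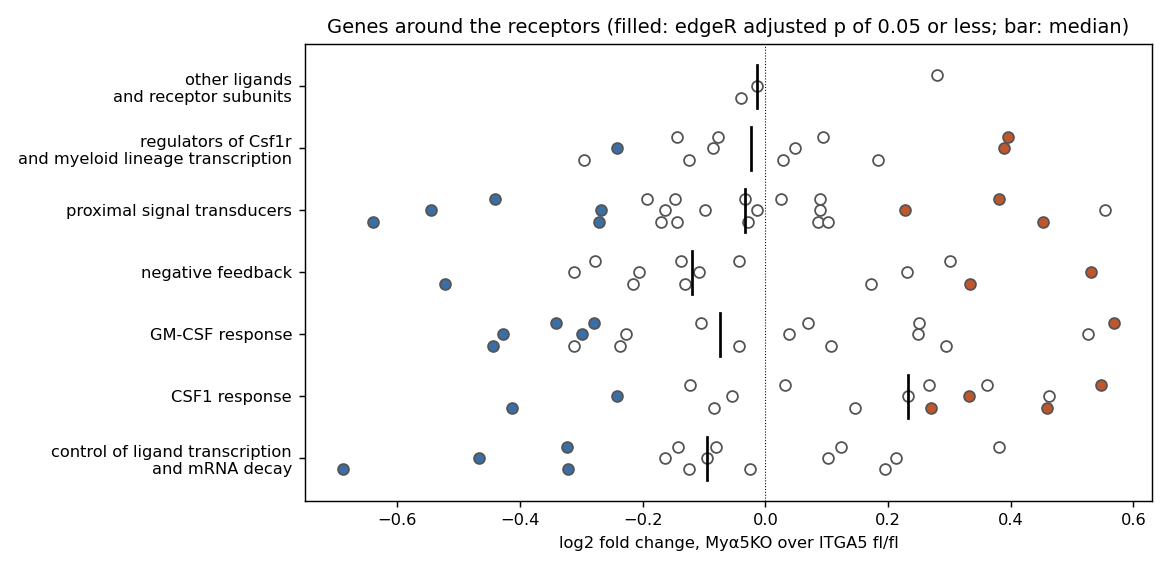
Log2 fold changes (horizontal axis, Myα5KO over ITGA5 fl/fl) of the tested genes in the 7 lists around the receptors, 1 point per gene. Filled points have an edgeR adjusted p of 0.05 or less, orange for higher and blue for lower, open points do not, and the bar is the median of the list, which is 0.23 for the list of CSF1 response and between -0.12 and -0.01 for the others.

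Markers of the cell types that the preparation could hold were set beside these values. Over all tested genes 8.75% were called, 3.56% higher and 5.19% lower. The shares of macrophage (11.1%), fibroblast (10%), endothelial (12.5%) and dendritic cell markers (12.5%) called were near that of all tested genes. The 9 macrophage markers other than Csf1r summed to 11317.5 to 11663.9 CPM in ITGA5 fl/fl and to 10639.6 to 11344.4 CPM in Myα5KO libraries, with 1 higher (Fcgr1). Of 10 fibroblast markers, from a cell type that makes CSF-1, all 10 had a negative log2 fold change and 1 passed the test (Postn), and their sum was 1643 to 1926 CPM in the controls and 1235 to 1600 CPM in Myα5KO libraries. The part of fibroblast RNA in the values of Csf1 and Csf3 was not tested. Of 8 endothelial markers 1 was higher (Kdr), with sums of 335 to 380 and 363 to 412 CPM. Markers of T, NK and innate lymphoid cells, a source of GM-CSF, had 5 of 10 tested and none called, with sums of 101 to 121 and 96.0 to 110 CPM. Most of these sums was Il7r, at 66.7 to 94.8 CPM over all libraries, and Cd4, at 17.8 to 21.2 CPM. Cd3d, Cd3e, Cd3g, Cd8a and Trac were each at 0.587 CPM or less in every library. Markers of eosinophils, basophils and mast cells had 3 of 10 tested and none called, with sums of 16.3 to 22.0 and 18.2 to 20.4 CPM and Fcer1a at 0. Kit alone was 12.7 to 17.1 CPM over all libraries. Of 8 dendritic cell markers 1 was higher (Cd209a), with sums of 94.4 to 122 and 114 to 126 CPM. Of 5 B cell markers 2 were higher, with a median log2 fold change of 0.61 and sums of 68.0 to 107 and 107 to 172 CPM, and their part in the values of the 8 genes was not tested.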

How the data were processed

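Paired-end reads of polyadenylated RNA were aligned by the authors with TopHat2, and HTSeq gave the number of reads on each gene. The submitters' processing notes name TopHat2 2.0.9, Cufflinks 2.1.1, HTSeq 0.6.1 and the builds mm10 and GRCm38.p6. The deposited counts are whole numbers per gene without normalization, and the deposited FPKM are counts scaled by gene length and library depth. How strand and multi-mapped reads were treated is not given in the sources used here. That matters for overlapping genes and for Csf2rb and Csf2rb2.

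For counts the quasi-likelihood test in edgeR 4.0.16 (R 4.3.3) was used with TMM scaling and its default filter (minimum count 10, minimum total 15), fitted over all genes in all 6 libraries without covariates. P-values are two-sided and Benjamini-Hochberg adjusted, and an adjusted p of 0.05 or less was called, the threshold of the study, which used DESeq2. Ratios were compared by exact two-sided permutation tests. Alternatives were DESeq2 1.42.0, limma-voom (limma 3.58.1), limma on log2(FPKM + 1) and log2(FPKM + 0.1) where FPKM reached 1 in 3 libraries, other scalings and filters, a replicate block, summed paralogs, single libraries left out, a threshold of 0.01 and a test against 1.5-fold.

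The members and gene lists were chosen with earlier results of these data known. Named genes were the members, Itga5, Lyz2, Il34, Il3ra, Il5ra, up to 6 called genes of each pathway list and the 5 genes closest in pattern to each called member. Other genes were named after their values were seen, and single genes of 2 lists are not reported here. Groups came from the titles of the libraries. Libraries of the same group differed by more than sampling noise (chi-square per degree of freedom of 5.61 or more). Depth was 15424451 to 18419287 counts per library, and reads carried no molecular identifiers. Annotation was GENCODE M21.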

Additional observations from a re-analysis of the deposited data

How the results depend on the processing

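The number of lower members, 3, was also 3 whichever single library was left out. It was 2 with Csf2rb and Csf2rb2 summed to a single row and 2 at the 0.01 threshold. It was 1 on log2(FPKM + 1) or log2(FPKM + 0.1) and 0 against a minimum of 1.5-fold. Csf3 lost its call only against 1.5-fold (log2 fold change -1.09, edgeR adjusted p = 0.361). Csf2rb lost it on log2(FPKM + 1) (-0.43), on log2(FPKM + 0.1) (-0.44, limma adjusted p = 0.0751), against 1.5-fold (-0.43) and at the 0.01 threshold (-0.43). Csf2rb2 lost it on log2(FPKM + 1) (-0.43), on log2(FPKM + 0.1) (-0.44, limma adjusted p = 0.0639) and against 1.5-fold (-0.43). The cause was not tested. Csf1 was not called in any alternative (-0.33 to -0.19, edgeR, DESeq2 or limma adjusted p 0.0758 to 1), nor was Csf3r (0.07 to 0.22). With single libraries left out the log2 fold change was -1.20 to -0.85 for Csf3, -0.54 to -0.33 for Csf2rb, -0.51 to -0.33 for Csf2rb2, -0.0639 to 0.0296 for Csf1r and -0.0189 to 0.0663 for Csf2ra. Csf1r also turned to 0.0575 under library-size scaling, and neither gene was called in any alternative. Library-size scaling moved the median of all genes from 0.01 to 0.10 and changed 12 higher and 17 lower pathway genes to 25 and 10. Over all genes it changed 517 higher and 754 lower to 1212 and 518. Pathway genes numbered 4 higher and 9 lower under either FPKM pseudocount, 21 higher without a count filter, 0 and 0 against 1.5-fold, 6 and 7 at the 0.01 threshold, and 5 to 15 higher and 9 to 15 lower with single libraries left out (5 and 9 without ITGA5 fl/fl replicate 3, 10 lower without ITGA5 fl/fl replicate 2, 7 higher without Myα5KO replicate 3). All genes numbered 150 higher and 322 lower on log2(FPKM + 1), 142 and 306 on log2(FPKM + 0.1), 798 higher without a filter, 1 and 14 against 1.5-fold, 128 and 342 at the 0.01 threshold, and 187 to 420 higher and 429 to 671 lower with single libraries left out. Replicate numbers did not pair the libraries (correlations of deviations 0.0509, -0.0576 and 0.0434). With them as a replicate block, Csf3 was -1.07, Csf2rb -0.44, Csf2rb2 -0.43 and Csf1 -0.27, with the same calls. Low counts limit Csf2, Il34 and Ccl17.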
